A study of Mus musculus with 12 samples.

Results

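The IFIT and IFITM families were followed as 6 genes, Ifit1, Ifit2, Ifit3, Ifitm2, Ifitm3 and Ifitm6, chosen by their symbols among the 24421 genes listed for every library of a study of miR-182 in osteoclast precursors. All 6 genes were found, and 7 further rows bear an Ifit or Ifitm name. The 12 libraries are mRNA sequencing of bone marrow macrophages (BMMs) from mice given as C57BL/6, grown with M-CSF, the survival factor of macrophages, for 3 days. The strain was not tested. In the loss of function experiment, WT (Mir182+/+LysMcre(+)) and Mir182ΔM/ΔM (Mir182flox/floxLysMcre(+)) BMMs were left untreated (basal) or given RANKL, the cytokine that drives osteoclast formation, for 5 days. In the gain of function experiment, Control (LysMcre(+)) and Mir182mTg (LSL-Mir182LysMcre(+)) BMMs were compared without RANKL. Each of the 6 conditions had 2 replicates. LysMcre expresses Cre recombinase from the lysozyme M gene Lyz2 in myeloid cells, and all 6 conditions carry it, the controls included. Cre removes the floxed Mir182 gene in Mir182ΔM/ΔM mice, and in Mir182mTg mice it removes a stop cassette (LSL) in front of a Mir182 transgene at the Rosa26 locus. The study describes its RNA-seq replicates as biological, and how many mice gave each library is not given in the sources used here. In both experiments the p-values measure only the spread between these libraries, whose replicates differ by label in starting RNA and aligner. Part of that spread may be technical in either experiment, and how much was not tested. Levels are CPM, the reads of a gene after scaling every library to an equal total, and RPKM, CPM per kilobase of gene length, where levels of different genes are compared. Ages of the mice are not given in the labels.

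Type I interferons bind a receptor made of IFNAR1 and IFNAR2, whose kinases JAK1 and TYK2 activate transcription factors of the STAT family. With IRF9 these form a complex that binds a DNA element, the interferon-stimulated response element (ISRE), and switches on interferon-stimulated genes. IFIT proteins are cytoplasmic proteins with tetratricopeptide repeats, and IFIT1 is known for binding viral RNA that lacks the methylated cap of host mRNA. IFITM proteins are small membrane proteins that hinder the fusion of enveloped viruses with cell membranes, and IFITM3 does so in endosomes. Both families are standard readouts of interferon signaling, and type I interferon restrains osteoclast formation.

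The IFIT members lie together on mouse chromosome 19 and the IFITM members on chromosome 7, placed by GENCODE on GRCm38 (mm10). On the plus strand of chromosome 19 the order is Ifit2 (chr19:34550694-34576419), Ifit3 (chr19:34583531-34588731) and Ifit1 (chr19:34640871-34650009). On the minus strand of chromosome 7 lie Ifitm2 (chr7:140954837-140955987), Ifitm3 (chr7:141009586-141010770) and Ifitm6 (chr7:141015699-141017924). Of the Ifit3 transcript, 51.2% of the windows of 50 bases also occur in transcripts of another gene, in each case Ifit3b. That share was 48.5% for Ifitm2, mostly with the annotated gene Gm45717, 10.02% for Ifitm3, 7.13% for Ifit1, mostly with Ifit1bl2, and 0% for Ifit2 and Ifitm6. How reads that match several genes were counted is not given in the sources used here, so the levels of Ifit3, Ifit3b and Ifitm2 are uncertain by the reads they could share.

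The promoter windows, from 250 bases before to 50 bases after each RefSeq start (GRCm38.p6), were searched on both strands for the core of the ISRE, which is GAAA, 2 bases of any kind and GAAA, because that element carries the response of such genes to type I interferon. All 6 members matched a promoter, and 4 of them hold the motif, against 3.44% of the 32851 windows and 3.99% of the 27025 genes. Ifit1 and Ifit3 each hold it at 2 places, and Ifitm2 at 1 place. Ifitm3 holds it at 2 places that begin 2 and 19 bases after the start. No match was found in the windows of Ifit2, which has 2 annotated starts, and of Ifitm6. The matches before the start are shown as 30 bases on the gene's strand, with the match in capitals. They lie at chr19:34640775-34640804 and chr19:34640794-34640823 for Ifit1, at chr19:34583363-34583392 and chr19:34583397-34583426 for Ifit3, and at chr7:140955988-140956017 on the minus strand for Ifitm2.
Ifit1, match 104 bases before the start: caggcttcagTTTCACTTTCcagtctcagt
Ifit1, match 85 bases before the start: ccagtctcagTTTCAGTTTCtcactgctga
Ifit3, match 156 bases before the start: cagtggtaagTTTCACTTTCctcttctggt
Ifit3, match 122 bases before the start: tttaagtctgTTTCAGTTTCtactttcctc
Ifitm2, match 46 bases before the start: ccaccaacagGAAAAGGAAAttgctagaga
The first match of Ifit1 and the first of Ifit3 share the same 10 letters, and so do the second matches. The 2 windows of Ifit3 recur letter for letter in the promoter of Ifit3b. The 2 windows of Ifit1 also belong to the promoter of Ifit1bl2, the neighbouring gene on the other strand, 51 and 70 bases before its start. The GAS core (TTC, 3 bases of any kind and GAA), an element known from the response to type II interferon, was found in 3 members, Ifit2, Ifitm3 and Ifitm6, against 8.30% of all windows and 9.55% of the genes, and in Ifitm3 it overlaps the second ISRE match. A match is a run of letters, and binding was not measured.

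A second motif search concerned miR-182 itself, the molecule that was deleted or added. The mature miR-182-5p (chr6:30165962-30165986, minus strand) is shown with its seed, bases 2 to 8, in capitals, followed by the only match to that seed, TTGCCAA, in an annotated 3′ UTR of the 6 members.
mmu-miR-182-5p: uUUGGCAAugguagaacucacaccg
Ifit1 3′ UTR, chr19:34649187-34649216: acaaaaaagtctTTGCCAAagaaggtattt
The match in Ifit1 begins at base 342 of the 3′ UTR. Of the 19529 listed genes with an annotated 3′ UTR, 11.5% hold such a match, as does 1 of the 6 members and 0 of the other 7 family genes.

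Library depth was 24951280 to 33050619 reads on genes, so that 3 reads equal 0.0908 to 0.120 CPM. The row of the Mir182 hairpin was at 2.39 and 4.40 CPM in the Mir182mTg libraries and at 0 in 9 of the 10 others, with 0.0370 CPM in 1 Mir182ΔM/ΔM basal library, so it marks the transgene, whereas the deletion cannot be read from it. In 2 genes that served as library checks, the WT RANKL libraries differed from the remaining loss of function libraries. Lyz2 was at 4117 and 4288 CPM in WT RANKL, at 22.5 to 44.0 CPM in the other 6 loss of function libraries and at 5783 to 7062 CPM in the gain of function libraries. Ifi202b, whose level differs between mouse strains, was at 1.12 and 0.972 CPM in WT RANKL, at 82.1 to 152 CPM in the other 6 and at 0 to 0.0908 CPM in the gain of function libraries. What sets the WT RANKL libraries apart in these genes and the effects of RANKL and genotype cannot be told apart in comparisons that use them, and results are therefore also given without them. All 6 macrophage markers were above 1 CPM in every library, with a summed level of 5620 to 8475 CPM. The summed level of 6 osteoclast markers was 36.0 to 69.3 CPM in the basal libraries, 4959 and 5318 CPM in WT RANKL and 1179 and 1264 CPM in Mir182ΔM/ΔM RANKL. The 7 listed neutrophil markers summed to 21.9 and 22.2 CPM in WT RANKL and to 7.19 and 7.36 CPM in Mir182ΔM/ΔM RANKL, monocyte markers to 94.0 and 98.0 against 12.97 and 13.3 CPM, and the 3 endothelial markers, nearly all of it Kdr, to 24.4 and 26.5 against 107 and 106 CPM. Dendritic cell markers summed to 1.40 to 3.60 CPM, stroma markers to 1.57 to 36.9 CPM, B and T or NK cell markers to at most 0.306 CPM and erythroid markers to 0. Other comparisons also went with marker sums. Monocyte markers summed to 462 and 447 CPM in WT basal and to 337 and 321 CPM in Mir182ΔM/ΔM basal. That difference was mostly F13a1, at mean levels of 368.5 against 241 CPM. Ccr2 was near equal (66.1 and 64.6 CPM), and the means of Ly6c2 (1.86 and 2.71 CPM) and Chil3 (18.1 and 20.8 CPM) were higher in Mir182ΔM/ΔM. Neutrophil markers summed to 90.9 to 115 CPM in both groups. In Control and Mir182mTg, neutrophil markers summed to 50.7 and 49.5 against 117 and 107 CPM, and monocyte markers to 325 and 311 against 217 and 214 CPM. The monocyte difference was mostly Ccr2, at mean levels of 232.8 CPM in Control against 119.04 CPM in Mir182mTg. F13a1 was near equal there (77.4 and 75.7 CPM). The means of Ly6c2 (2.84 and 4.98 CPM) and Chil3 (5.10 and 16.03 CPM) were higher in Mir182mTg. In bulk RNA, fewer cells of a type and less RNA per cell cannot be told apart, and the part of cell make-up in the results was not tested.

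**Figure D1:**
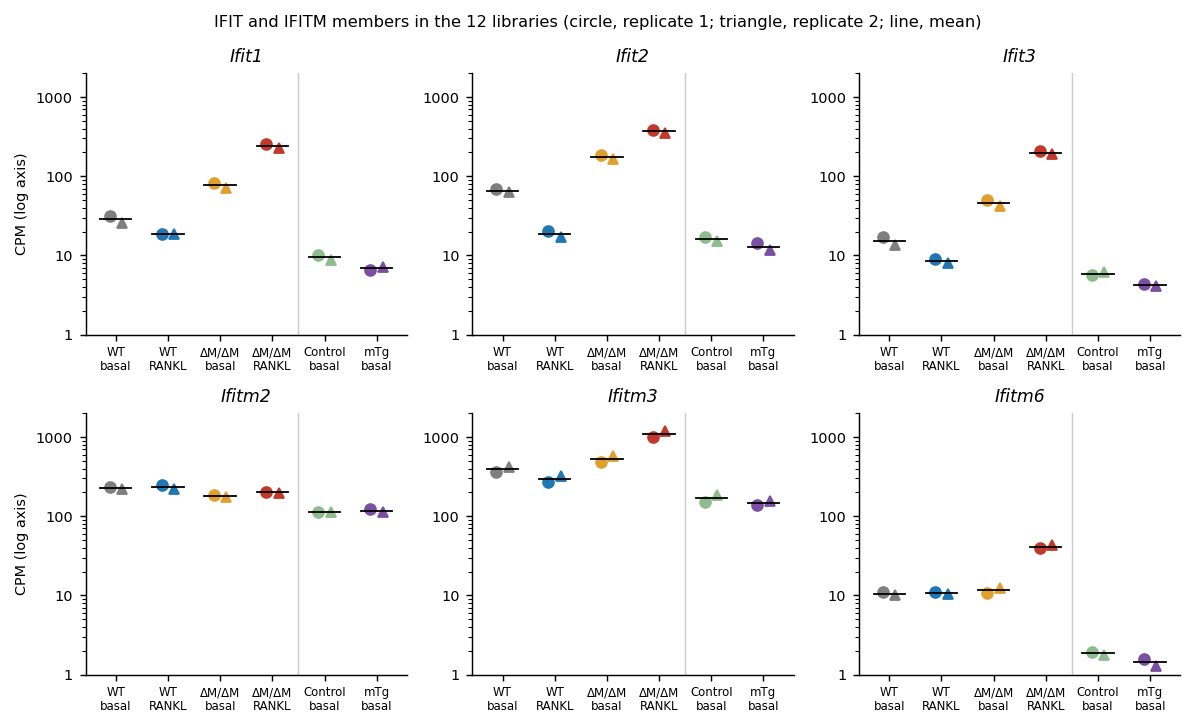
CPM of the 6 members on a log axis in each of the 12 libraries, by condition, with the replicates as a circle and a triangle and the mean as a line. The 3 IFIT members and Ifitm3 are highest in Mir182ΔM/ΔM RANKL and next highest in Mir182ΔM/ΔM basal, Ifitm6 is raised in Mir182ΔM/ΔM RANKL alone among the loss of function conditions, and Ifitm2 spans 112 to 246 CPM over all libraries.

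After RANKL, 5 of the 6 members were higher in Mir182ΔM/ΔM than in WT cells, with changes from 3.66-fold to 21.1-fold, and Ifitm2 was slightly lower. The comparison asks how loss of miR-182 changes the osteoclast precursors' genes under RANKL. It was tested with limma on log2(CPM + 1), whose fold changes understate those of low genes, and adjusted over the 11691 genes tested. Against the 5 of 6 members called higher, 14.3% of all tested genes were called higher, and against the 1 called lower, 30.9% were called lower. Ifit2, with Mx1, Irf7 and Cxcl10 described further on, was among the interferon response genes that the study named from these same samples, so their direction is not independent evidence.

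Ifit1, the sensor of foreign RNA, was at 18.4 and 18.8 CPM in WT RANKL (replicates 1 and 2 here and below) and at 254 and 231 CPM in Mir182ΔM/ΔM RANKL. The log2 fold change was 3.63 (SE 0.11, adjusted p = 1.50e-06), or 12.4-fold. Ifit2, known for promoting cell death and restricting viruses, was at 20.3 and 17.1 CPM in WT RANKL and at 381 and 357 CPM in Mir182ΔM/ΔM RANKL. Its log2 fold change was 4.24 (SE 0.11, adjusted p = 6.91e-07), or 18.9-fold. Ifit3, a partner that stabilizes IFIT1 in human cells, was at 9.02 and 7.95 CPM in WT RANKL and at 208 and 189.8 CPM in Mir182ΔM/ΔM RANKL. It had the largest change of the 6, 21.1-fold, and the log2 fold change was 4.40 (SE 0.13, adjusted p = 1.39e-06). In all 3 genes the lower Mir182ΔM/ΔM library lay far above the higher WT library.

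Ifitm3, the endosomal restriction factor, was at 271 and 322 CPM in WT RANKL and at 1006 and 1203 CPM in Mir182ΔM/ΔM RANKL, a log2 fold change of 1.90 (SE 0.14, adjusted p = 5.94e-05). Ifitm6, a family member of mice that is less well characterized, was at 10.9 and 10.3 CPM in WT RANKL and at 39.9 and 42.9 CPM in Mir182ΔM/ΔM RANKL, a log2 fold change of 1.87 (SE 0.10, adjusted p = 1.36e-05). Both genes rose, by 3.72-fold and 3.66-fold, and the groups did not overlap. Ifitm2, a close relative of Ifitm3 in the same gene cluster, was at 246 and 222 CPM in WT RANKL and at 204 and 196 CPM in Mir182ΔM/ΔM RANKL, a log2 fold change of -0.22 (SE 0.072, adjusted p = 0.0411). This call was lost with TMM factors, where the log2 fold change was -0.07 (adjusted p = 0.430), and when any library other than the second WT RANKL library was left out, which gave adjusted p-values from 0.0529 to 0.219.

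Scaling mattered for this comparison, since the median of all tested genes was -0.14 on the log2 scale and moved to -0.01 with TMM factors. Calls over all genes were 1668 higher and 3607 lower without TMM factors and 2403 higher and 2392 lower with them. Relative to that shift the 5 raised members stayed raised, with log2 fold changes under TMM of 3.77 for Ifit1, 4.38 for Ifit2, 4.53 for Ifit3, 2.04 for Ifitm3 and 2.01 for Ifitm6. With WT basal in place of the WT RANKL libraries as the reference, which mixes the genotype with RANKL, the same 5 members were called higher, at 33.8% of all tested genes higher in that comparison. The log2 fold changes were then 3.05 for Ifit1, 2.47 for Ifit2, 3.62 for Ifit3, 1.499 for Ifitm3 and 1.89 for Ifitm6, with limma adjusted p-values from 1.03e-06 to 8.33e-05. Ifitm2 was then at -0.17 (adjusted p = 0.0812). For Ifit2 the fold fell from 18.9 to 5.52, for Ifit3 from 21.1 to 12.3 and for Ifit1 from 12.4 to 8.28.

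**Figure D2:**
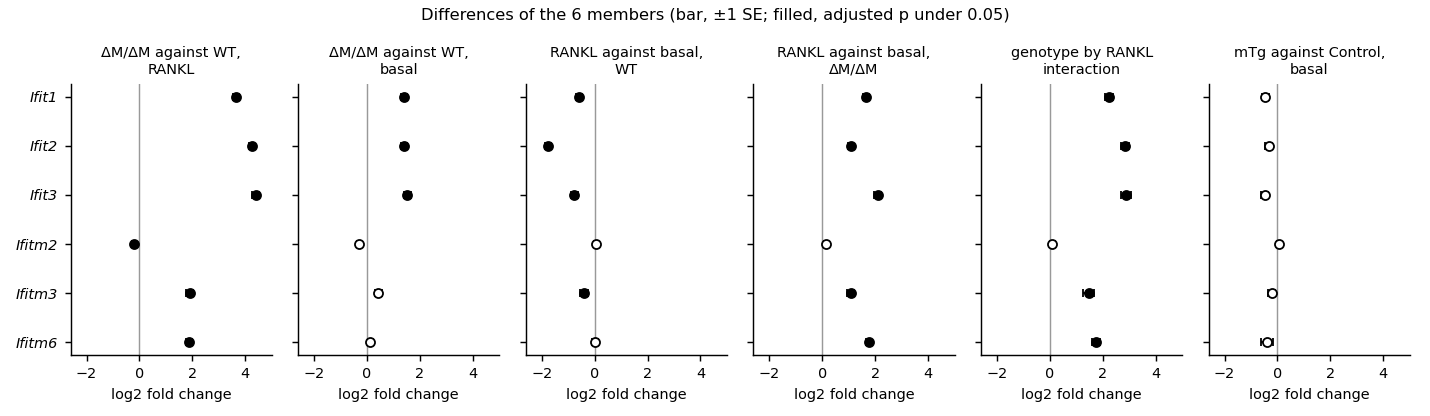
Log2 fold changes of the 6 members in each comparison, with bars of 1 SE and filled points for an adjusted p under 0.05. All fits shown are without the replicate block. After RANKL the 3 IFIT members lie between 3.63 and 4.40, at baseline they lie between 1.40 and 1.52 while the IFITM members are open, and all 6 are open in the comparison of Mir182mTg with Control.

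Without RANKL the 3 IFIT members were already higher in Mir182ΔM/ΔM than in WT BMMs, by 2.63-fold to 2.87-fold, and no IFITM member was called. The baseline comparison leaves out the WT RANKL libraries. Higher calls covered 2.71% and lower calls 1.1% of all tested genes, against 3 and 0 of the 6 members. Ifit1 was at 31.3 and 25.7 CPM in WT basal and at 81.7 and 71.6 CPM in Mir182ΔM/ΔM basal, and the log2 fold change was 1.40 (SE 0.11, adjusted p = 0.00168). Ifit2 was at 69.6 and 62.5 CPM in WT basal and at 186 and 165 CPM in Mir182ΔM/ΔM basal, and the log2 fold change was 1.40 (SE 0.11, adjusted p = 0.00131). Ifit3 was at 17.0 and 13.7 CPM in WT basal and at 49.95 and 41.7 CPM in Mir182ΔM/ΔM basal, and the log2 fold change was 1.52 (SE 0.13, adjusted p = 0.00231). The groups of all 3 genes lay apart. Fitted without the WT RANKL libraries, which lend the fit an estimate of the spread, the same 3 genes were called, with adjusted p-values from 0.00199 to 0.00537 and 1.85% of all tested genes called higher.

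Among the IFITM members at baseline, Ifitm3 was at 360.1 and 419.5 CPM in WT and at 478 and 575 CPM in Mir182ΔM/ΔM, a log2 fold change of 0.43 (SE 0.14, adjusted p = 0.187). Its 2 Mir182ΔM/ΔM libraries were above both WT libraries. Ifitm2 was at 232 and 218 CPM in WT and at 184 and 176 CPM in Mir182ΔM/ΔM, a log2 fold change of -0.32 (SE 0.072, adjusted p = 0.0660). Its 2 Mir182ΔM/ΔM libraries were below both WT libraries. How many of all genes lay apart in either direction was not counted. Ifitm6 was at 10.9 and 10.02 CPM in WT and at 10.7 and 12.4 CPM in Mir182ΔM/ΔM, so that the groups overlapped, and the log2 fold change was 0.13 (SE 0.10, adjusted p = 0.648). With the replicate number as a block, Ifitm3 was called higher (adjusted p = 1.59e-10) and Ifitm2 lower (adjusted p = 1.68e-07) in limma, while calls over all genes grew to 18.6% higher and 12.7% lower. The difference in outcome between the families at baseline was not tested.

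The replicates of a condition differed in the same direction for some members. Ifitm3 was higher in replicate 2 than in replicate 1 in 6 of 6 conditions, by ratios of 1.13 to 1.23. Ifit2 and Ifitm2 were lower in replicate 2 in 6 of 6 conditions, with ratios of 0.815 to 0.937 and 0.904 to 0.982. Ifit3 was lower in 5 conditions and Ifit1 and Ifitm6 in 4. Replicates differ by label in the starting RNA and in the aligner, and both differences move together with the replicate number. The ribosomal RNA row Rn45s was at 742 to 1176 CPM in replicate 1 and at 9778 to 21273 CPM in replicate 2.

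In WT cells, RANKL went with lower IFIT levels. Ifit2 fell from 69.6 and 62.5 CPM to 20.3 and 17.1 CPM, a log2 fold change of -1.77 (SE 0.11, adjusted p = 9.09e-06). Ifit3 fell from 17.0 and 13.7 CPM to 9.02 and 7.95 CPM, and the log2 fold change was -0.78 (SE 0.13, adjusted p = 0.00181). Ifit1 fell from 31.3 and 25.7 CPM to 18.4 and 18.8 CPM, and the log2 fold change was -0.58 (SE 0.11, adjusted p = 0.00329). The 2 RANKL libraries lay below the 2 basal libraries in each of these genes. Ifitm3 was also called lower, at -0.40 (SE 0.14, adjusted p = 0.0429), a call that was lost without the second WT basal library (adjusted p = 0.195) or the first WT RANKL library (adjusted p = 0.208). Of all tested genes, 40.6% were called higher and 22% lower in this comparison, against 0 and 4 of the 6 members.

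Ifitm6 stood at 10.9 and 10.02 CPM before and at 10.9 and 10.3 CPM after RANKL in WT cells, a log2 fold change of 0.02 (SE 0.10, adjusted p = 0.900). Ifitm2 went from 232 and 218 CPM to 246 and 222 CPM, a log2 fold change of 0.06 (SE 0.072, adjusted p = 0.524), whose sign turned with TMM factors (-0.15, adjusted p = 0.0934). The median of all tested genes was 0.19 here and -0.01 with TMM factors, and the calls went from 4741 higher and 2571 lower to 3352 higher and 3569 lower. Under TMM the log2 fold changes were -0.78 for Ifit1, -1.97 for Ifit2, -0.97 for Ifit3, -0.61 for Ifitm3 and -0.18 for Ifitm6, whose sign also turned. All values of this comparison rest on the 2 WT RANKL libraries that stand apart in Lyz2 and Ifi202b.

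In Mir182ΔM/ΔM cells, RANKL went with higher levels of 5 members. Ifit3 rose from 49.95 and 41.7 CPM to 208 and 189.8 CPM, a log2 fold change of 2.10 (SE 0.13, adjusted p = 1.49e-05). Ifitm6 rose from 10.7 and 12.4 CPM to 39.9 and 42.9 CPM, a log2 fold change of 1.76 (SE 0.10, adjusted p = 8.80e-06). Ifit1 rose from 81.7 and 71.6 CPM to 254 and 231 CPM, and the log2 fold change was 1.65 (SE 0.11, adjusted p = 2.12e-05). Ifit2 and Ifitm3 each rose 2.10-fold, with log2 fold changes of 1.07 (SE 0.11, adjusted p = 0.000137) and 1.07 (SE 0.14, adjusted p = 0.000569). In each of the 5 genes both RANKL libraries were above both basal ones.

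Ifitm2 was the exception, at 184 and 176 CPM before and 204 and 196 CPM after RANKL, and the log2 fold change was 0.15 (SE 0.072, adjusted p = 0.112). It was called higher with the replicate block in limma (adjusted p = 0.000249), where 42.7% of all tested genes were. Of all tested genes, 30.4% were called higher and 26.4% lower, against 5 and 0 of the members. This comparison uses no WT RANKL library, and without those libraries in the fit the same 5 members were called, with adjusted p-values from 3.76e-05 to 0.000828 and 29.7% of all tested genes called higher.

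The RANKL responses of the genotypes were compared in the interaction term, which is the response in Mir182ΔM/ΔM minus that in WT on the log2 scale. It was above 0 for Ifit3 (2.87, SE 0.19, adjusted p = 0.000115), Ifit2 (2.84, SE 0.15, adjusted p = 5.42e-05), Ifit1 (2.23, SE 0.16, adjusted p = 0.000154), Ifitm6 (1.74, SE 0.14, adjusted p = 0.000245) and Ifitm3 (1.47, SE 0.20, adjusted p = 0.00213). For Ifitm2 it was 0.10 (SE 0.10, adjusted p = 0.555), and it was called above 0 with the replicate block together with TMM factors (0.26, adjusted p = 8.93e-05) or in edgeR on recovered reads (0.26, adjusted p = 1.66e-05). The 3 IFIT members and Ifitm3 were called in opposite directions in the genotypes, whereas Ifitm6 was called in Mir182ΔM/ΔM cells alone. Over all tested genes, 7.44% had an interaction called above 0 and 17.1% below 0, and with TMM factors the calls went from 870 above and 2005 below to 1222 above and 1287 below. The interaction cannot be computed without the WT RANKL libraries. The 4 loss of function comparisons and the interaction share libraries, so their results are not independent of each other.

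Within the IFIT family the make-up shifted with the conditions. By RPKM, Ifit2 took 45.7% to 48.8% of the 3 members' summed level in the 4 basal loss of function libraries. In WT RANKL, Ifit1 led with 42.0% and 46.2%, and Ifit2 took 30.9% and 28.0%. In Mir182ΔM/ΔM RANKL the 3 members were near equal, with Ifit3 at 35.0% and 34.8%, Ifit2 at 32.5% and 33.1% and Ifit1 at 32.5% and 32.0%. Their summed level was 38.0 and 32.4 RPKM in WT basal, 16.6 and 15.4 RPKM in WT RANKL, 103 and 89.8 RPKM in Mir182ΔM/ΔM basal and 297 and 273 RPKM in Mir182ΔM/ΔM RANKL.

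As a sum, the IFITM members were more abundant per length, at 410 to 2248 RPKM over the 12 libraries. Ifitm3 made up most of it in every library, from 50.3% in the first WT RANKL library to 79.5% and 82.5% in Mir182ΔM/ΔM RANKL. The share of Ifitm2 was 47.2% and 40.8% in WT RANKL and 16.7% and 13.9% in Mir182ΔM/ΔM RANKL. Ifitm6 stayed at or below 3.78%. Its mean of 76.6 RPKM in Mir182ΔM/ΔM RANKL was below those of Ifit1 (91.9), Ifit2 (93.4) and Ifit3 (99.4). These shares are descriptions of levels per length and carry no test.

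**Figure D3:**
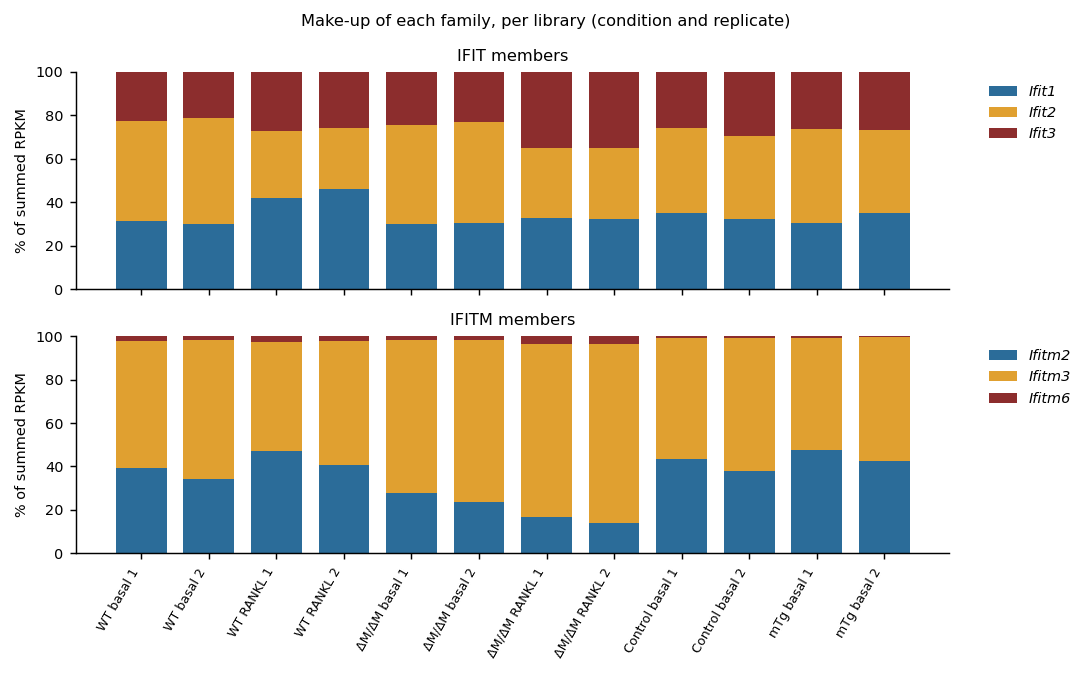
Share of each member in the summed RPKM of its family, in percent, for each of the 12 libraries. Ifit3 grows to about the share of the other IFIT members in Mir182ΔM/ΔM RANKL (35.0% and 34.8%), and Ifitm3 takes its highest share of the IFITM sum there (79.5% and 82.5%).

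In the gain of function experiment, none of the 6 members was called between Mir182mTg and Control BMMs by edgeR's quasi-likelihood test over 12081 genes. The comparison asks what added miR-182 does without RANKL. Values that follow are without the block. At an unadjusted p under 0.05 there were 2 members, Ifit1 and Ifit3, and DESeq2 and limma on log2(CPM + 1) called 0 members after adjustment. Over all genes edgeR called 0.0993% higher and 0.157% lower. Ifit1 was at 10.2 and 8.73 CPM in Control and at 6.63 and 7.16 CPM in Mir182mTg, a log2 fold change of -0.47 (SE 0.13, adjusted p = 0.464). Ifit3 was at 5.71 and 6.08 CPM in Control and at 4.36 and 4.12 CPM in Mir182mTg, and the log2 fold change was -0.48 (SE 0.14, adjusted p = 0.464). Ifit2 was at 17.2 and 15.3 CPM in Control and at 14.3 and 11.6 CPM in Mir182mTg, and the log2 fold change was -0.34 (SE 0.14, adjusted p = 0.731). In each IFIT member, and in Ifitm6, both Mir182mTg libraries were below both Control libraries. The share of all genes that lay apart in this way was not counted.

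Ifitm3 was at 152 and 188 CPM in Control and at 137 and 155 CPM in Mir182mTg, and these groups overlapped (log2 fold change -0.23, SE 0.13, adjusted p = 0.924). Ifitm6 was at 1.95 and 1.78 CPM against 1.57 and 1.29 CPM, a log2 fold change of -0.38 (SE 0.22, adjusted p = 0.932). Ifitm2 was at 114 and 112 CPM against 123 and 112 CPM, a log2 fold change of 0.04 (SE 0.082). With the replicate block in edgeR 4 members were called lower, Ifit1 (adjusted p = 0.00688), Ifit2 (adjusted p = 0.00775), Ifit3 (adjusted p = 0.0179) and Ifitm3 (adjusted p = 0.000578). Calls over all genes then grew to 6.94% higher and 8.15% lower.

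Across the 6 conditions the order of mean levels was the same for the 3 IFIT members and Ifitm3. From high to low it ran Mir182ΔM/ΔM RANKL, Mir182ΔM/ΔM basal, WT basal, WT RANKL, Control and Mir182mTg. Neighbours in that order overlapped between WT RANKL and Control for Ifit2 and between Control and Mir182mTg for Ifitm3. Ifitm6 had the same top and bottom, and its Mir182ΔM/ΔM basal, WT RANKL and WT basal values overlapped. Ifitm2 had another order, WT RANKL, WT basal, Mir182ΔM/ΔM RANKL, Mir182ΔM/ΔM basal, Mir182mTg and Control, with overlaps between the WT groups and between Mir182mTg and Control. All 6 members were lower in Control than in WT basal BMMs, for example 9.46 against 28.5 CPM for Ifit1 and 169.7 against 389.8 CPM for Ifitm3. Those groups come from separate experiments and differ in Lyz2 and Ifi202b, so they were not tested against each other.

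The genes whose pattern over the 12 libraries was most like a member's were sought among the 10383 other genes of at least 5 CPM in a library, by the root mean square difference of log2(CPM + 1) after each gene's mean was removed. Nearest to Ifit1 were Rsad2 (0.22), Cmpk2 (0.25) and Zbp1 (0.27), and nearest to Ifit2 were Gm4951 (0.23), Rsad2 (0.29) and Mx1 (0.33). Nearest to Ifit3 were Iigp1 (0.14), Zbp1 (0.25) and F830016B08Rik (0.33). For the IFITM members the nearest were Oas2 (0.19), Ifi47 (0.22) and Irgm1 (0.24) for Ifitm3, Gbp7 (0.33), Bmp2 (0.39) and Gbp5 (0.40) for Ifitm6, and Pirb (0.087), Plcl2 (0.093) and Fam160a2 (0.14) for Ifitm2. Rsad2 appears for Ifit1 and Ifit2 and Zbp1 for Ifit1 and Ifit3, and no gene appears for both an IFIT and an IFITM member. The distances carry no test.

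The other 7 genes of the families had lower levels. The 3 further IFIT genes lie in the same cluster on chromosome 19, and all 3 were higher in Mir182ΔM/ΔM. Ifit3b was at 1.92 and 2.27 CPM in WT RANKL and at 40.9 and 37.5 CPM in Mir182ΔM/ΔM RANKL (log2 fold change 3.70, adjusted p = 3.0e-06). Ifit1bl1 went from 2.19 and 1.94 to 29.8 and 27.0 CPM (3.26, adjusted p = 1.7e-06) and Ifit1bl2 from 0.239 and 0.396 to 3.81 and 5.08 CPM (2.04, adjusted p = 4.6e-05). All 3 were also called higher at baseline, with log2 fold changes of 1.11, 1.01 and 0.78. Of all tested genes, 14.3% were called higher after RANKL and 2.71% at baseline. Ifitm1, which acts at the cell surface, was lower in Mir182ΔM/ΔM RANKL, at 0.591 and 0.905 CPM against 2.15 and 2.41 CPM (-0.91, adjusted p = 0.0039). Ifitm5, known from bone-forming cells, Ifitm7 and Ifitm10 were at most 1.002 CPM in every loss of function library and were not tested.

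**Figure D4:**
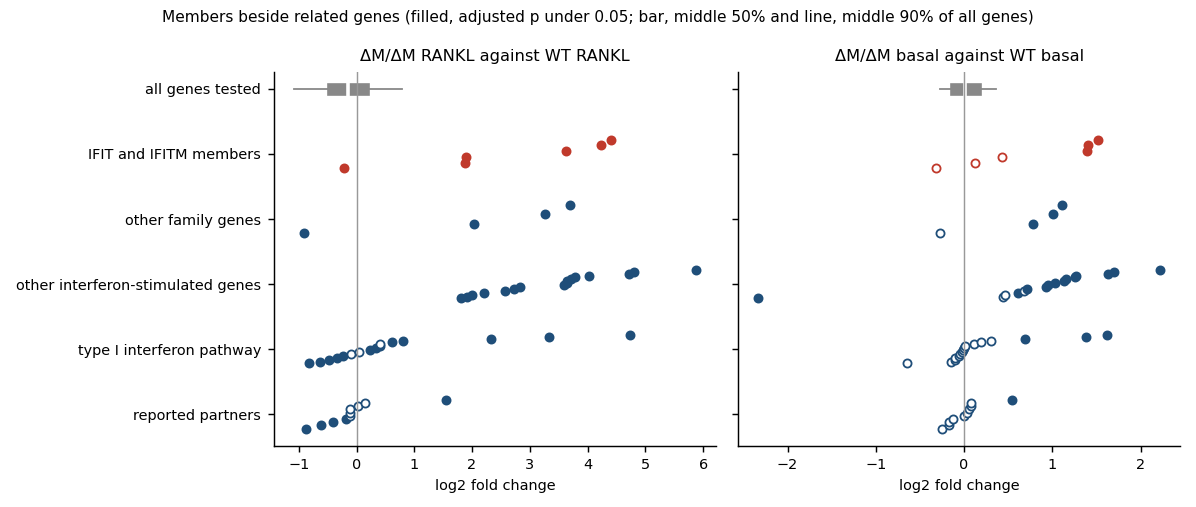
Log2 fold changes of Mir182ΔM/ΔM against WT, after RANKL and at baseline, for the 6 members, other family genes and 3 lists of related genes, with filled points for an adjusted p under 0.05. The top row gives all tested genes as a bar for the middle 50%, a line for the middle 90% and a white tick at the median. After RANKL the 16 other interferon-stimulated genes lie between 1.81 and 5.88, the range that also holds 5 of the 6 members. The reported partners lie between -0.88 and 0.14 after RANKL, and Eif2ak2, drawn in the same row though not such a partner, lies at 1.55.

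Other interferon-stimulated genes were counted from a list of 16. After RANKL all 16 were called higher in Mir182ΔM/ΔM than in WT, where 14.3% of all tested genes were. Their median log2 fold change was 3.62, beside a median of 2.76 for the 6 members and -0.14 for all tested genes. Examples are the ubiquitin-like modifier Isg15 (4.02, adjusted p = 1.1e-05), the antiviral GTPase Mx1 (3.71, adjusted p = 1.7e-06), the antiviral enzyme Rsad2 (3.64, adjusted p = 2.0e-07) and the chemokine Cxcl10 (4.81, adjusted p = 3.5e-07). At baseline 12 were higher and 1 lower, beside 2.71% and 1.1% of all tested genes, with a median of 0.99. The gene called lower was Ifi44, at 66.4 and 62.9 CPM in WT basal, 2.83 and 2.56 CPM in WT RANKL, 12.7 and 11.4 CPM in Mir182ΔM/ΔM basal and 226 and 206 CPM in Mir182ΔM/ΔM RANKL. RANKL went with 3 higher and 9 lower in WT cells, beside 40.6% and 22% of all tested genes. In Mir182ΔM/ΔM cells it went with 16 higher, beside 30.4% of all tested genes. In Mir182mTg against Control 0 were called, with a median of -0.41, and 10 were called lower with the replicate block, where 8.15% of all tested genes were.

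The pathway upstream of the members was counted from a list of 24 genes, of which 16 passed the filter on low values. Of the ligands, Ifnb1, the gene of IFN-β, was at 0.0985 and 0.197 CPM in Mir182ΔM/ΔM RANKL, at 0.0370 and 0.0746 CPM in Mir182ΔM/ΔM basal and at or below 0.0378 CPM in the other 8 libraries. Most of these values come from 3 reads or fewer and were not tested. The other 7 ligand genes were listed at 0 in all 12 libraries, which allows up to 0.120 CPM for counting error alone. Of the receptors, Ifnar2 (0.34, adjusted p = 0.013) and Ifnar1 (0.23, adjusted p = 0.016) were slightly higher in Mir182ΔM/ΔM RANKL than in WT RANKL. The kinase Jak1 was slightly lower (-0.23, adjusted p = 0.029), a call that was lost with TMM factors (-0.08, adjusted p = 0.343), and Tyk2 was at -0.10 (adjusted p = 0.53).

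Of the 7 transcription factors, 5 were higher and 2 lower in that comparison. Irf7, which drives the amplification of interferon genes, had the largest change, from 47.6 and 49.7 CPM to 1297 and 1355 CPM (log2 fold change 4.74, adjusted p = 8.0e-08). Stat2, a part of the ISRE-binding complex, went from 71.3 and 72.7 to 370.1 and 358 CPM (2.32, adjusted p = 6.4e-07). Irf9 (0.80), Irf1 (0.61) and Irf5 (0.40) were higher, and Irf8 (-0.82) and Irf3 (-0.63) were lower. Of the 5 inhibitors, Usp18, which blocks receptor signaling and removes ISG15 from proteins, was higher (3.34, adjusted p = 7.9e-06), and Socs3 (-0.47) and Pias1 (-0.34) were lower, calls that were lost with TMM factors (adjusted p = 0.123 and 0.156). In the whole list 8 of 16 were higher and 5 lower, beside 14.3% and 30.9% of all tested genes, with a median of 0.29.

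At baseline the pathway genes called were Usp18 (1.62, adjusted p = 0.0029), Irf7 (1.38, adjusted p = 9.6e-05) and Stat2 (0.68, adjusted p = 0.0017), all higher in Mir182ΔM/ΔM. These 3 are themselves induced by interferon. Of all tested genes 2.71% were called higher there. With the replicate block 4 were higher and 3 lower, where 18.6% and 12.7% of all tested genes were. RANKL in WT cells went with 2 higher and 6 lower of the 16, beside 40.6% and 22% of all tested genes. Stat2 was among the lower (-1.31, adjusted p = 1.9e-06). With the block 5 were higher and 7 lower, beside 6177 and 3387 of the 11691 genes tested. RANKL in Mir182ΔM/ΔM cells went with 9 higher and 2 lower, beside 30.4% and 26.4% of all tested genes. With the block 9 were higher and 6 lower, beside 4997 and 4239 of the 11691 genes tested. In Mir182mTg against Control 0 of the 16 were called. With the block 3 were called lower, where 8.15% of all tested genes were. These were Irf7 (-0.62, adjusted p = 1.1e-06), Usp18 (-0.64, adjusted p = 0.00051) and Irf5 (-0.12, adjusted p = 0.0075).

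A list of 10 genes was counted that held reported partners and modifiers of the proteins and, besides these, Eif2ak2, which was not listed as such. After RANKL 1 of them was higher and 4 lower in Mir182ΔM/ΔM, with a median of -0.12, where 14.3% and 30.9% of all tested genes were. With the replicate block 2 were higher and 7 lower, beside 2740 and 5815 of the 11691 genes tested. The gene called higher was Eif2ak2, which encodes the kinase PKR, at 89.99 and 80.5 CPM in WT RANKL and 255 and 246 CPM in Mir182ΔM/ΔM RANKL (1.55, adjusted p = 3.0e-05). It was also called higher at baseline (0.55, adjusted p = 0.032) and with RANKL in Mir182ΔM/ΔM cells (0.61, adjusted p = 0.0016), lower with RANKL in WT cells (-0.39, adjusted p = 0.012), and above 0 in the interaction (1.0005, adjusted p = 0.0024). The genes called lower were Tmem173, which encodes the DNA sensing adaptor STING (-0.88, adjusted p = 9.9e-05), the proton pump subunit Atp6v0b (-0.61, adjusted p = 0.038), the translation factor subunit Eif3e (-0.41, adjusted p = 0.0037) and the kinase Tbk1 (-0.18, adjusted p = 0.046). With TMM factors Atp6v0b (-0.46, adjusted p = 0.106) and Tbk1 (-0.04, adjusted p = 0.666) were no longer called. In Mir182mTg cells Eif2ak2 was at 77.9 and 72.6 CPM against 121 and 111 CPM in Control (log2 fold change -0.63, adjusted p = 0.085 by edgeR, and 5.4e-09 with the replicate block). The study picked Eif2ak2 from these same conditions, among genes raised in Mir182ΔM/ΔM and lowered in Mir182mTg BMMs at an FDR under 0.05. The adjusted p of 0.085 here did not reach that threshold. A match to published miR-182 targets was also required, and the study then tested PKR by quantitative PCR, immunoblot and a 3′ UTR reporter assay. The direction of Eif2ak2 in the baseline and Mir182mTg comparisons of these libraries is therefore not independent evidence.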

How the data were processed

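mRNA of BMMs was sequenced in 12 libraries, and groups and replicate numbers were read from the sample labels. Per the labels, replicate 1 is polyA RNA processed with TopHat and Cufflinks, replicate 2 is total RNA processed with HISAT2, HTSeq and edgeR, the protocol of both names poly-A selection, and the build is mm10. The authors deposited CPM for the 8 loss of function libraries and an unnormalized read count for each gene in the 4 gain of function libraries, which was scaled here to CPM. Replicate 1 files also hold RPKM from the authors, which is CPM over a fixed gene length, and the same length gave RPKM for replicate 2. All CPM values (100%) are whole reads within 0.01 read, so recovered reads were also tested. In the CPM files 27 gene names had become dates and were restored by row position.

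CPM was tested with limma 3.58.1 (trend) on log2(CPM + 1) of the 11691 genes at or above 1 CPM in at least 2 of 8 libraries, in 1 fit of 4 groups. Counts were tested with edgeR 4.0.16 (TMM, filterByExpr, quasi-likelihood) on 12081 genes, with R 4.3.3. P-values were two-sided and Benjamini-Hochberg adjusted over all genes tested, with a threshold of 0.05 and no fold threshold. The SE of an edgeR fold change is its size over the square root of F. Alternatives used the replicate block, TMM factors, quantile normalization, another pseudocount, other filters, edgeR and DESeq2 1.42.0 on recovered reads, DESeq2, limma, RLE factors or library totals for the counts, the 4 samples compared and each library left out. Fits without the WT RANKL libraries, with WT basal as reference, and with TMM and the block together were added after seeing the data. Replicate numbers pair the libraries, because the labels tie them to RNA type and aligner, and deviations from the group means correlated across genes between same-numbered libraries (r 0.690 to 0.754 over pairs of loss of function conditions, 0.744 between Control and Mir182mTg). Tools were tested on simulated data. Members and gene lists were chosen with earlier results of these data known. Named genes were the members, every other Ifit or Ifitm row, lists of pathway, partner and interferon-stimulated genes, library checks, cell type markers and the 3 genes most like each member. Coordinates are from GENCODE vM21 (GRCm38), and promoters and the miRNA from RefSeq (GRCm38.p6). Ly6g and H2-Ea were not among the listed names. 1 gene of the pathway list is not reported here.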

Additional observations from a re-analysis of the deposited data

Results flagged for a closer look

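The RANKL response differed between the genotypes for 5 members, by the interaction term of the limma fit adjusted over 11691 genes. Of all tested genes, 7.44% had an interaction called above 0 and 17.1% below 0. On the log2 scale the response in Mir182ΔM/ΔM exceeded that in WT by 2.87 for Ifit3, 2.84 for Ifit2, 2.23 for Ifit1, 1.74 for Ifitm6 and 1.47 for Ifitm3. All 5 kept their call under the 17 alternatives run, with log2 values from 2.73 to 3.15 for Ifit3, 2.72 to 3.07 for Ifit2, 2.09 to 2.45 for Ifit1, 1.65 to 2.01 for Ifitm6 and 1.33 to 1.64 for Ifitm3. The WT RANKL libraries enter all 5 values, and their Lyz2 level was at least 4117 CPM against at most 44.0 CPM in the other loss of function libraries.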

How the results depend on the processing

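Of 618 values for the 6 members under alternatives, 582 kept their direction and side of the threshold. All 36 that changed belong to Ifitm2, Ifitm3 or, under the replicate block of the gain of function comparison, Ifit1, Ifit2 and Ifit3. Members lower in Mir182ΔM/ΔM RANKL went from 1 to 0 with no filter, TMM factors, edgeR or DESeq2 on recovered reads, the 4 samples alone or WT basal as reference, and were 0 to 1 with a library left out. Members lower at baseline went from 0 to 1 (Ifitm2) with the replicate block in limma or edgeR, with the block and TMM factors, quantile normalization or DESeq2. Members lower in Mir182mTg went from 0 to 4 with the block. Leaving out a library gave 3 to 4 members lower with RANKL in WT and no other change in a count. Ifitm2 under RANKL in WT reversed to -0.15 (-0.154837 in edgeR with the block, -0.153092 with TMM factors and the block). Ifitm3 in the same comparison lost its call with no filter (adjusted p = 0.0670) and with quantile normalization (adjusted p = 0.0531). Genes called in all were 5275 after RANKL and 8555 with the block, 446 at baseline and 3651 with the block, 2875 for the interaction and 6889 with the block, and 31 for Mir182mTg and 1822 with the block. DESeq2 called 124, limma 46 and edgeR without a filter 141 for Mir182mTg. At baseline leaving out a library gave 97 to 293, the 4 samples alone 102 and the fit without the WT RANKL libraries 291, and for Mir182mTg leaving out a library gave 55 to 166. The cause of these changes was not tested. With 2 replicates a condition, values near 3 reads (0.0908 to 0.120 CPM) were not interpreted.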
